A study of Mus musculus with 7 samples.

Results

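The dual-specificity phosphatases (DUSPs) and the Sprouty and Spred proteins, which act as feedback on mitogen-activated protein (MAP) kinase signalling, were examined in regulatory T (Treg) cells with both copies of Pggt1b floxed. The group holds 10 genes of 21902 on the array, chosen by symbol: Dusp1, Dusp2, Dusp4, Dusp5, Dusp6, Dusp10, Spry1, Spry2, Spred1 and Spred2. Each had 1 probe set. Treg cells are CD4 T cells defined by Foxp3, a transcription factor, and they hold immune responses in check. The 3 KO samples were CD4+ YFP+ cells sorted from spleen and pLN of Foxp3-Cre chimeras homozygous for the floxed Pggt1b allele, and the 4 Het samples were the same sort from Foxp3-Cre chimeras with 1 floxed and 1 wild-type allele. Both groups therefore carry the Cre driven with Foxp3, and the Het cells also carry 1 floxed allele. The labels do not say how the chimeras were made or which cells of the host remained, nor the age, sex or strain of the mice. The product of Pggt1b is a subunit of the enzyme that attaches a geranylgeranyl lipid anchor to many small GTPases. The comparison asks how the transcriptome of Treg cells differs when both alleles are floxed. Values are log2 signals of single-colour arrays, 1 per sample. Precision is limited by how few arrays there are.

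The ERK pathway runs from receptors through Ras and the kinases Raf, MEK and ERK to transcription factors in the nucleus. ERK output switches on genes whose products damp the pathway again. DUSPs remove phosphate from both the threonine and the tyrosine that activate a MAP kinase, and they differ in location and in preference for ERK, JNK or p38. Sprouty and Spred proteins act further up, at the receptor, Ras and Raf steps. Transcripts of these genes are therefore often read as a record of recent ERK output, although several also respond to other signals. In T cells the main input is the antigen receptor.

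All 13 markers of CD4 T and Treg cells examined, Foxp3 and Cd4 among them, were above the array's floor on every array, and 2 of them, Ikzf2 and Ctla4, fell in KO cells (limma). The estimate was negative for 11 of the 13 and positive for 2, at a median change of -0.18. At an unadjusted limma p under 0.05, 6 were lower and 0 higher, against 11% and 8.91% of all tested genes. The floor is the 95th percentile of that array's olfactory receptor probe sets and lay between 5.48 and 5.77 on the log2 scale. The Pggt1b probe set read 6.59, 6.62 and 6.59 in KO arrays, against 7.09, 7.11, 6.71 and 6.97 in Het arrays (change -0.37 ± 0.13, SE; limma adjusted p = 0.126). The labels do not say whether its probes lie in the deleted part, so this checks neither deletion nor protein. Markers of myeloid cells stood apart between the genotypes. The mean log2 level of the 20 markers was 6.93 to 8.22 on KO arrays and 5.65 to 6.18 on Het arrays, with 17 to 20 of them above the floor on KO arrays and 9 to 13 on Het arrays. Of the 17 tested, 14 rose, against 2.55% of all tested genes called higher at a limma adjusted p under 0.05. Mrc1, C1qc and Cd14, which are among the 14, were below the floor on every Het array. They entered the test only through the KO arrays, so their calls could not have gone the other way. KO replicate 1 had the highest myeloid level. Of 8 plasmacytoid dendritic cell markers 3 rose as well, while 0 of 6 tested B cell markers passed (limma; 0 also at an unadjusted p under 0.05). Of 5 tested CD8 T and NK cell markers, 2 rose and 1 fell. In sorted populations, a change in the share of a cell type and a change in RNA per cell cannot be told apart.

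Among the 10 genes, Dusp1 fell 1.52-fold in KO cells and Spry2 rose, by 1.37-fold with its Het arrays set to their floors. The other tested members did not pass the threshold. Genes were tested if at least 3 arrays lay above the floor, and were called at a limma adjusted p under 0.05 over all 13083 tested genes. Of these, 2.55% were called higher and 3.24% lower, against 1 of the 9 tested members higher and 1 lower. At an unadjusted limma p under 0.05, 4 of the 9 members were higher and 3 lower, against 8.91% and 11% of all tested genes. Spred1 was too dim to be tested. The signs of the estimates were mixed, with 5 of the 9 tested members higher and 4 lower. With no filter, the median change was 0.03 over the 10 members and -0.02 over all 21902 genes. Over the 9 tested members it was 0.26, against -0.02 over all tested genes, and Spry2 was among the 9 through its KO arrays alone. KO and Het values did not overlap for 6 of the 9 tested members. The KO arrays were above for 4 (Spry2, Dusp10, Dusp2 and Dusp5) and below for 2 (Dusp1 and Dusp4). Among all tested genes 19.5% had no overlap, 9.67% with KO above and 9.82% with KO below.

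**Figure D1:**
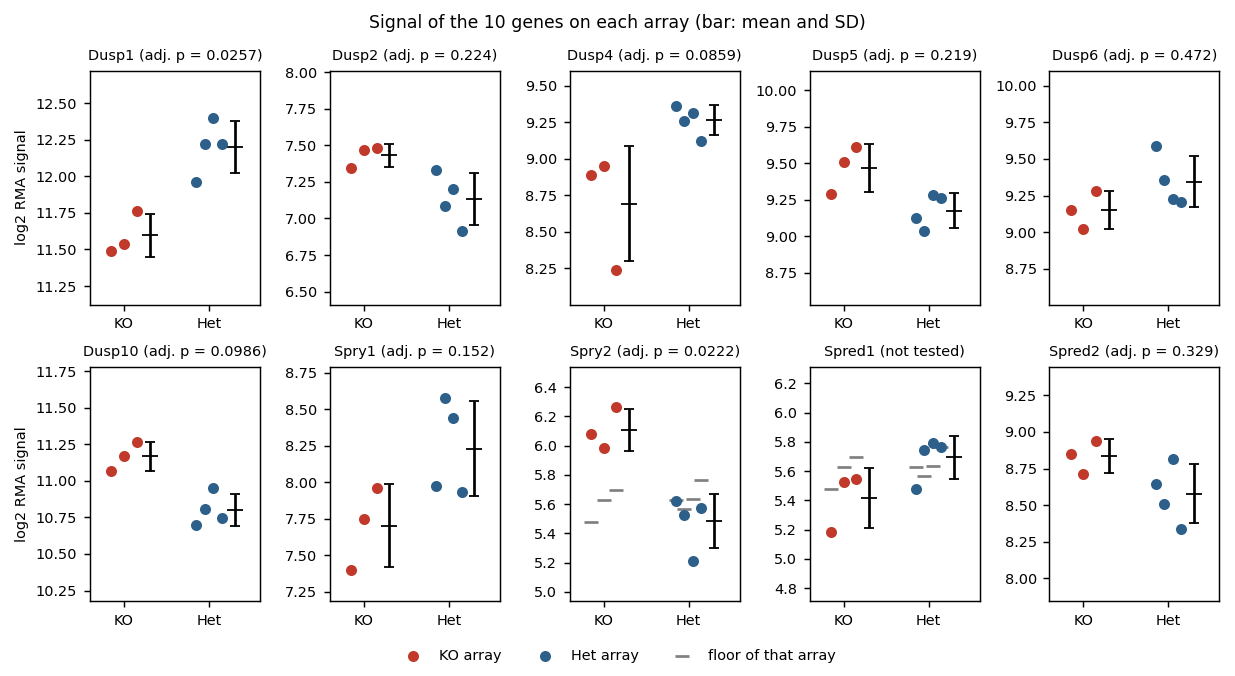
Log2 RMA signal of each of the 10 genes on the 3 KO (left) and 4 Het (right) arrays, with the mean and SD beside the points and a span of 1.6 on every vertical axis. Grey dashes in the Spry2 and Spred1 panels mark the floor of each array. KO and Het points do not overlap for Dusp1, Dusp2, Dusp4, Dusp5, Dusp10 and Spry2, and all Het values of Spry2 lie below their floor.

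Of the inducible nuclear phosphatases Dusp1, Dusp2, Dusp4 and Dusp5, only Dusp1 passed the test. Dusp1, an immediate early gene whose product acts on p38 and JNK as well as ERK, read 11.49, 11.54 and 11.76 in KO arrays, against 11.96, 12.22, 12.40 and 12.22 in Het arrays. Every KO value was below every Het value, and Het replicate 1 was the lowest of its group. The group means were 11.60 ± 0.15 in KO and 12.20 ± 0.18 in Het cells (SD, n = 3 and 4), a change of -0.60 ± 0.13 (SE) or a 1.52-fold fall (limma adjusted p = 0.0257). An exact permutation test of this gene gave p = 0.0286, the smallest that the 35 splits of 3 against 4 arrays allow. Dusp1 lay at least 5.91 log2 units above the floor on every array. Leaving out 1 array ended the call for KO replicates 1 (-0.55) and 2 (-0.57) and for Het replicates 2 (-0.60) and 3 (-0.54), as did quantile normalization (-0.50, limma adjusted p = 0.058).

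The Dusp1 promoter is shown because Dusp1 is the member that fell, with that of Spry2, the member that rose, and that of Dusp5, an ERK-specific phosphatase whose window holds a pair of CArG boxes. Each is the 250 bases before the RefSeq start (GRCm38.p6), 5′ to 3′ in the direction of the gene, and capitals mark the motif matches named below. The Dusp1 window is chr17:26508473-26508722 (minus strand), the Dusp5 window chr19:53528895-53529144 (plus strand) and the Spry2 window chr14:105896820-105897069 (minus strand).
Dusp1: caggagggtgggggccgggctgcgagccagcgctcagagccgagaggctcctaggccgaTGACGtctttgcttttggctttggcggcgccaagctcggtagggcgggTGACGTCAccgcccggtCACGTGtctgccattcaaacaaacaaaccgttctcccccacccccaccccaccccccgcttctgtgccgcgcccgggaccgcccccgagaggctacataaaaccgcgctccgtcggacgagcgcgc
Dusp5: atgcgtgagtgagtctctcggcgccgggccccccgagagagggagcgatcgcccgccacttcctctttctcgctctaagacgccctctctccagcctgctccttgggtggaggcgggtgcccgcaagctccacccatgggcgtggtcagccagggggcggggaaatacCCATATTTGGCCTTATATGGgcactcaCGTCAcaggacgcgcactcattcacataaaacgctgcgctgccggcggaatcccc
Spry2: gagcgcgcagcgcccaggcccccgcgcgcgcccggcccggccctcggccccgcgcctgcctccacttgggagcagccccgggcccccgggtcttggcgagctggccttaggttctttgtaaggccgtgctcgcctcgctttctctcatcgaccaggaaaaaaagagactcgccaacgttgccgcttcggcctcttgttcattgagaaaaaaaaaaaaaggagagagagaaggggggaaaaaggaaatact

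Windows of 9 of the 10 genes were searched on both strands. The motifs were the cyclic AMP response element CRE (TGACGTCA), its shorter core (TGACG), the E-box (CACGTG) and the serum response factor's CArG box. Also searched were AP-1 (TGANTCA), a form of the ETS factor site (CCGGAA) and EGR (GCGGGGGCG). Elk1 of the ETS family and serum response factor are known targets of ERK signalling on immediate early promoters. Of the 9, the CRE was found only in Dusp1, at -143 to -136 from the start, and in 1.55% of all 32851 windows. The shorter core, which also lies inside the CRE, was in Dusp1, Dusp5 and Spred2 and in 17.8% of windows. The E-box was in Dusp1 and Dusp2 (6.02% of windows). The CArG box was found in Dusp5, at -82 to -73 and at -72 to -63, and in 1.47% of windows, and the EGR motif in Dusp2 (2.57%). AP-1 (6.75% of windows) and the ETS form CCGGAA (12% of windows) matched in none of the 9, and Spry2 held none of these motifs. Other forms of the ETS site were not searched, so the windows may still hold ETS sites. These are matches of letters and not measured binding.

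Dusp4, a nuclear phosphatase of ERK and JNK, read 8.89, 8.95 and 8.24 in KO arrays, against 9.36, 9.26, 9.31 and 9.12 in Het arrays. All KO values were below all Het values, and KO replicate 3 stood well below the other KO arrays. The change was -0.57 ± 0.17 (SE; 95% confidence interval -0.95 to -0.19), which did not pass in the fit over all genes (limma adjusted p = 0.0859; exact permutation p = 0.0286). Without KO replicate 3 it was -0.34. The call was made with array weights (-0.64, limma adjusted p = 0.0405) and with a trended, robust variance (adjusted p = 0.0338).

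Dusp2, a nuclear phosphatase that is prominent in activated lymphocytes, read 7.34, 7.47 and 7.48 in KO arrays, against 7.33, 7.09, 7.20 and 6.91 in Het arrays. The groups were separate by a narrow margin, between KO replicate 1 and Het replicate 1. Its change of 0.30 ± 0.13 (SE; 95% confidence interval 0.02 to 0.58) did not pass (limma adjusted p = 0.224; exact permutation p = 0.0571). Dusp5, the nuclear phosphatase specific for ERK, read 9.29, 9.51 and 9.61 in KO arrays, against 9.12, 9.03, 9.28 and 9.26 in Het arrays. KO replicate 1 lay just above the highest Het array. Its change of 0.29 ± 0.12 (SE; 95% confidence interval 0.02 to 0.57) did not pass either (limma adjusted p = 0.219; exact permutation p = 0.0286).

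Dusp6, the cytoplasmic phosphatase specific for ERK and a classical readout of ERK activity, read 9.15, 9.02 and 9.28 in KO arrays, against 9.59, 9.36, 9.23 and 9.21 in Het arrays. The groups overlapped. The change was -0.19 ± 0.13 (SE; limma adjusted p = 0.472), with a 95% confidence interval of -0.48 to 0.10. That interval leaves out a fall or rise of 0.5 or more between these arrays, whose spread may be technical. Dusp10, which prefers JNK and p38 over ERK, read 11.07, 11.17 and 11.26 in KO arrays, against 10.70, 10.81, 10.95 and 10.75 in Het arrays. All KO arrays were above all Het arrays. The change of 0.37 ± 0.12 (SE; 95% confidence interval 0.11 to 0.62) did not pass (limma adjusted p = 0.0986; exact permutation p = 0.0286), and was called only with a trended, robust variance (adjusted p = 0.0149).

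**Figure D2:**
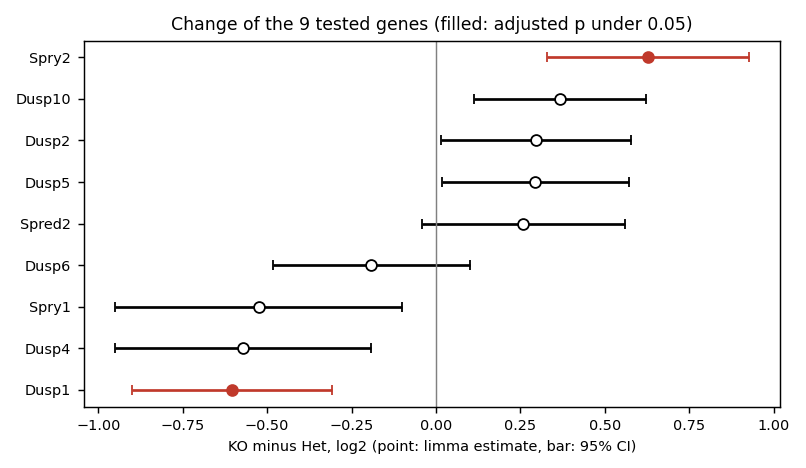
KO minus Het change on the log2 scale (horizontal axis) of the 9 tested genes, in order of size, as limma estimates with 95% confidence intervals. Filled points passed an adjusted p of 0.05: Spry2 at 0.63 and Dusp1 at -0.60. The intervals of Dusp6 and Spred2 include 0.

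The Sprouty genes had estimates of opposite sign. Spry2, an inhibitor of receptor tyrosine kinase signalling to Ras and ERK, read 6.08, 5.98 and 6.26 in KO arrays, against 5.62, 5.53, 5.21 and 5.57 in Het arrays. All KO arrays were above the floor and all Het arrays below it. Spry2 thus entered the test only through the group in which it was high, so its call could not have gone the other way. The change was 0.63 ± 0.14 (SE; limma adjusted p = 0.0222; exact permutation p = 0.0286), and with the Het arrays set to their floors the rise was at least 1.37-fold. Leaving out 1 array ended the call for KO replicates 1 (0.64) and 3 (0.55) and for Het replicates 2 (0.64) and 3 (0.54). The stricter filter on dim genes left Spry2 out.

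Spry1, a modulator of antigen receptor signalling in T cells, read 7.40, 7.75 and 7.96 in KO arrays, against 7.97, 8.58, 8.44 and 7.94 in Het arrays. KO replicate 3 lay within the Het range, next to Het replicates 1 and 4, which were lower than the other Het arrays. The estimate was close in size to that of Dusp4, at -0.53 ± 0.19 (SE; 95% confidence interval -0.95 to -0.10), and did not pass (limma adjusted p = 0.152; exact permutation p = 0.143). It was -0.37 without KO replicate 1 and -0.65 without KO replicate 3.

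The Spred proteins sit at the membrane and suppress the step from Ras to Raf, Spred1 by bringing the Ras inactivator neurofibromin there. Spred1 read 5.18, 5.53 and 5.55 in KO arrays, against 5.48, 5.75, 5.79 and 5.77 in Het arrays. No KO array and 2 of 4 Het arrays were above the floor, so it was not tested. The highest KO values lay above the lowest Het value, so the groups overlapped. Spred2 read 8.85, 8.72 and 8.94 in KO arrays, against 8.65, 8.51, 8.81 and 8.34 in Het arrays. The groups overlapped at Het replicate 3, and the change was 0.26 ± 0.14 (SE; 95% confidence interval -0.04 to 0.56; limma adjusted p = 0.329).

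**Figure D3:**
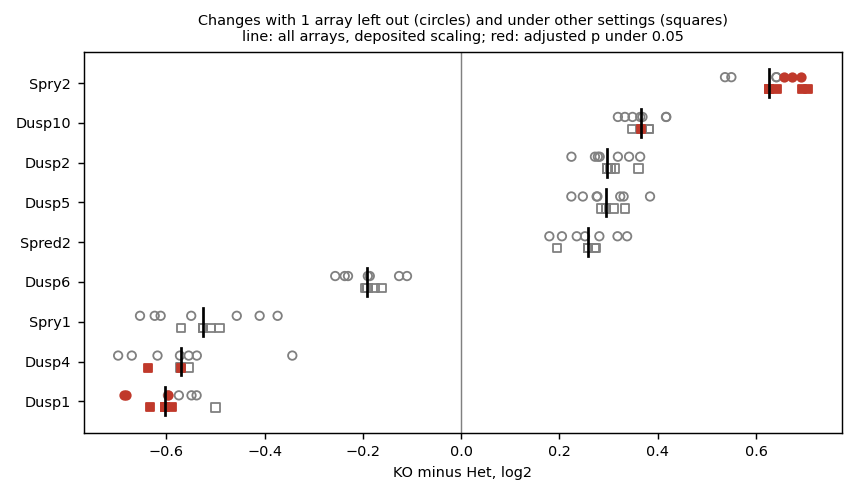
KO minus Het change on the log2 scale of the 9 tested genes with all arrays (vertical line), with 1 array left out (circles) and under the other settings (squares). Red marks an adjusted p under 0.05. Every gene keeps its sign, and the spread of circles is widest for Dusp4, from -0.70 to -0.34.

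No estimate of the 9 tested members changed sign in any setting in which it was tested, 14 for each gene and 13 for Spry2. Dusp1 and Spry2 were each called in 9 of these. Dusp2, Dusp5, Dusp6, Spry1 and Spred2 were called in 0 of 14 (limma), although at an unadjusted p under 0.05 Spry1 passed in 11 of them, Dusp5 in 10, Dusp2 in 8, Spred2 in 1 and Dusp6 in 0.

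The gene whose pattern over the 7 arrays was most like that of Spry2 was Rab33b, a Rab GTPase of the Golgi, at a root mean square difference of 0.088 log2 units between the gene-centred values. All 4 Het values of Spry2 lie below the floor, so the likeness rests there on signal at background level and the order of the genes is uncertain. Rab33b was followed by Ncf1, a subunit of the phagocyte NADPH oxidase (0.093), and Ttyh2 (0.096). Rab33b rose by 0.52 ± 0.12 (SE; limma adjusted p = 0.0257) and Ttyh2 by 0.62 ± 0.13 (adjusted p = 0.0212), and the change of Ncf1 was 0.54 ± 0.15 (adjusted p = 0.059). For Dusp1, a search added after the values were seen gave Rab11fip4, an effector of Rab11 (0.060), Phlda1, itself an ERK-induced gene (0.060), and Hspa4l, a chaperone of the Hsp110 type (0.069). Phlda1 read 6.53, 6.58 and 6.64 in KO arrays, against 6.93, 7.20, 7.45 and 7.26 in Het arrays. As for Dusp1, its Het replicate 1 was the lowest and Het replicate 3 the highest of the group. Phlda1 was picked for its likeness to Dusp1, so this shared order is no separate finding.

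The rest of the family gave no call. Of 26 further MAP kinase phosphatases, Sprouty and Spred relatives, 17 were tested, and 0 rose and 0 fell (limma; median change 0.00). The smallest p values belonged to Ptpn5, a tyrosine phosphatase that acts on ERK and p38, at -0.67 ± 0.17 (SE; adjusted p = 0.0515), and Dusp22, an atypical phosphatase that damps T cell receptor signalling through Lck, at 0.58 ± 0.17 (adjusted p = 0.0793). At an unadjusted limma p under 0.05, 1 of the 17 was higher and 4 were lower, and 19.9% of all tested genes passed in either direction.

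Of 40 listed genes of the Ras-ERK cascade itself, 37 were tested. Of these, 4 rose and 0 fell (limma), at a median change of 0.13. At an unadjusted p under 0.05, 12 were higher and 1 was lower, and of all tested genes 8.91% were higher and 11% lower at that threshold. The adjusted threshold called 2.55% of all tested genes higher and 3.24% lower. The rises numbered 2 when either KO replicate 2 or KO replicate 3 was left out. Among the risen genes were the Ras exchange factor Rasgrp4, which read 6.74, 7.19 and 6.94 in KO arrays, against 6.01, 6.35, 5.98 and 6.36 in Het arrays (1.72-fold), the Ras-related GTPase Rras2 (1.72-fold) and the GTPase-activating protein Rasa3 (1.37-fold; limma adjusted p = 0.0498). Rasgrp2, an exchange factor for Rap (0.54 ± 0.14, adjusted p = 0.0552), and Map2k1, which encodes MEK1 (0.36 ± 0.11, adjusted p = 0.0801), did not pass.

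Other genes that ERK signalling is known to induce went both ways. Of 32 tested of 36 listed, 3 rose, 2 fell and 27 did not pass, at a median change of -0.03. More were lower than higher at an unadjusted limma p under 0.05, 11 against 4 of the 32. Of all tested genes, 11% were lower and 8.91% higher at that threshold. All KO arrays lay below all Het arrays for 8 of the 32 and above them for 4 (9.82% and 9.67% of all tested genes). The cyclin Ccnd1 rose 3.17-fold (1.66 ± 0.24, SE; limma adjusted p = 0.00265), the urokinase receptor Plaur 2.53-fold (with 2 of 4 Het arrays below the floor) and Myc, a driver of cell growth, 1.47-fold. Fosb, an AP-1 subunit, fell by 0.95 ± 0.23 (adjusted p = 0.0351) and Phlda1 by 0.63 ± 0.14 (adjusted p = 0.0233). Of these, Ccnd1 and Myc were called in all 14 settings, whereas the falls numbered 1 without KO replicate 2 or Het replicate 4 and 0 when KO replicate 1 or 3 or Het replicate 2 or 3 was left out. Junb (-0.49 ± 0.14, adjusted p = 0.0631) and Fos (-0.74 ± 0.23, adjusted p = 0.097) did not pass. In the JNK and p38 cascade, which Dusp1 and Dusp10 act on, 2 of 31 tested genes rose and 0 fell (limma; 7 higher and 1 lower at an unadjusted p under 0.05), at a median of 0.12. The shares over all tested genes were 2.55% higher and 3.24% lower, and 8.91% and 11% at the unadjusted threshold. The risen genes were the kinase Map3k3 (1.42-fold, adjusted p = 0.0212) and Gadd45g, an activator of the p38 and JNK kinase Map3k4 (1.58-fold, adjusted p = 0.0384). Gadd45b (-0.45 ± 0.14, adjusted p = 0.0945) and Tab3 (0.42 ± 0.13, adjusted p = 0.097) did not pass. With 1 array left out, 2 genes rose in 1 case (Het replicate 2), 1 gene in 4 cases (KO replicates 1 and 3, Het replicates 1 and 4) and 0 in 2 cases (KO replicate 2 and Het replicate 3).

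**Figure D4:**
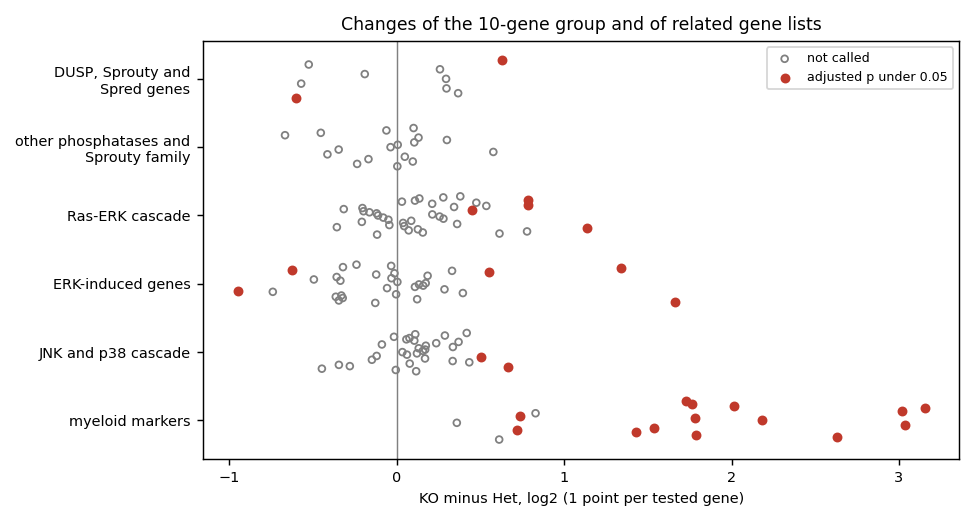
KO minus Het change on the log2 scale, 1 point per tested gene, for the DUSP, Sprouty and Spred genes, 4 related lists and the myeloid markers. Red points passed an adjusted p of 0.05. The myeloid markers are all above 0, with 14 of 17 red, while the DUSP, Sprouty and Spred genes lie on both sides of 0 with 2 red. Among the red points, Mrc1, C1qc, Cd14 and Spry2 entered the test through KO arrays alone.

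The myeloid markers rose on the KO arrays on which Spry2 and Dusp1 changed. KO replicate 1 had the highest mean myeloid level, 8.22 against 6.93 and 7.30 on the other KO arrays. On the same array Dusp1 and Spry1 were the lowest of the 7 arrays, Dusp2, Dusp5 and Dusp10 were the lowest of the KO arrays, and Spry2 lay between the other KO arrays. Without this array the change was 0.64 for Spry2 (limma adjusted p = 0.0578) and -0.55 for Dusp1 (adjusted p = 0.084). It was larger in size than with all arrays for Dusp10 (0.42), Dusp5 (0.38), Dusp2 (0.34) and Dusp4 (-0.67). For Spry1 it was smaller (-0.37, against -0.53 with all arrays), and it hardly moved for Dusp6 (-0.19) and Spred2 (0.25). The part of myeloid RNA in these changes, and in those of the related gene lists, was not tested.

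**Figure D5:**
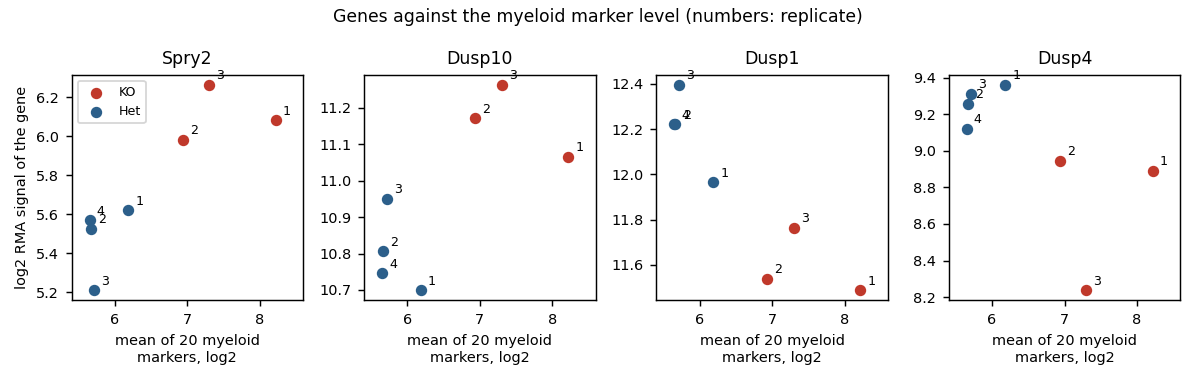
Log2 RMA signal of Spry2, Dusp10, Dusp1 and Dusp4 (vertical axes) against the mean log2 level of 20 myeloid markers (horizontal axis), 1 point per array, numbered by replicate. The KO arrays lie at 6.93 to 8.22 on the horizontal axis and the Het arrays at 5.65 to 6.18, so genotype and myeloid level do not overlap.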

How the data were processed

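Total RNA (1 to 20 ng) of sorted cells was amplified and biotin-labelled with NuGEN kits, per the labels' protocols. The deposited values are log2 signals from RMA, run by the authors in Affymetrix Expression Console 1.1 per the submitters' processing notes. RMA equalises the arrays' distributions of probe intensities and so shrinks any shift shared by most genes. The deposited probe set values were not fully equalised, with array medians from 5.93 (KO replicate 1) to 6.12 (Het replicate 4). The labels and file headers name no array design and no genome build. Both deposited tables hold the same values (0 of 28846 probe sets differ).

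Of the probe sets, 22203 carried 1 symbol and 6643 none. A gene was represented by its brightest probe set on average. Genes with at least 3 arrays above the floor (1117 olfactory probe sets) entered a limma 3.58.1 fit (R 4.3.3, default settings) with Benjamini-Hochberg adjustment over 13083 genes. Changes are KO minus Het. The fold of Spry2, whose Het arrays all fell below the floor, was computed with those arrays raised to their floors. It is a bound with respect to the floor only and does not allow for sampling error. Exact permutation tests are two-sided, on the absolute difference of means. In simulated KO and Het data of 13083 genes, limma recovered 36% of the log2 changes of 0.5 and 100% of those of 1, 1.5 and 2. The simulation changed a smaller share of genes than was called in the real data, all upward and with independent normal noise. Recovery in the real data may therefore differ.

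Groups come from the genotype labels. Replicates are numbered in order of deposit. Since no label says that they are separate animals, the spread behind the p-values may be technical. The members, lists, naming rule and settings were chosen with earlier results of these data known. Named list genes are the called ones and the 2 not called with the smallest p; 1 called gene is not reported here by name. The symbols Gab3 and Hbb-b1 were not matched. Promoters are RefSeq's, GRCm38.p6.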

Additional observations from a re-analysis of the deposited data

Results flagged for a closer look

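Spred1 read 5.48 on Het replicate 1, against 5.75 to 5.79 on the other 3 Het arrays, a gap of 0.857 of the group's range. This gap is above Dixon's 95% critical ratio for 4 values, which chance alone exceeds in about 1 of 20 groups, and 10 genes were examined. Spred1 lay close to the floor on all 7 arrays.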

How the results depend on the processing

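Fits were repeated under 14 settings, of which 7 left out 1 array each, and 12 counts of called genes were followed through them. Of the 168 values, 122 lay within 1.5 times the count with all arrays and 46 did not. Quantile normalization called 0 members lower and 1 of the wider family higher. Centring each array on its median over named probe sets, or no filter on dim genes, called 1 JNK and p38 gene higher. The stricter filter called 0 members higher, since it left out Spry2, and 1 of the wider family lower. Array weights called 2 members lower, 1 of the wider family higher and 1 lower, 4 ERK-induced genes and 1 JNK and p38 gene lower, and 547 of all genes higher and 697 lower. Trended, robust moderation called 2 members higher and 2 lower, 2 of the wider family lower, 5 ERK-induced genes lower and 4 JNK and p38 genes higher. With 1 array left out, 0 to 1 members were higher and 0 to 1 lower, 2 to 4 Ras-ERK genes were higher, 0 to 2 ERK-induced genes lower and 0 to 2 JNK and p38 genes higher. Over all genes 209 to 290 were then higher and 240 to 455 lower. Where a setting gave fewer or more calls, the cause was not tested unless stated. No paired analysis was possible because the labels carry no replicate numbers. In the simulated data, whose setting differs from the real data as given above, 36% of changes of 0.5 on the log2 scale and 100% of changes of 1 were recovered. A missed threshold therefore does not show that a member was unaltered.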
